A study of Ovis aries with 8 samples.

Results

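The genes described here are 10 components of bone morphogenetic protein (BMP) signalling, taken by name from the deposited expression table: the receptors BMPR1A, BMPR2 and ACVRL1, the co-receptor ENG, the signal-carrying SMAD1, SMAD5 and SMAD9, and the target genes ID1, ID2 and ID3. All 10 were present, each as 1 of the table's 15380 rows and 1 of 14577 named genes. RNA was measured on 1-colour arrays in pulmonary artery endothelial cells, the lining cells of the arteries that lead to the lungs, cultured from near-term sheep fetuses. The 4 control cultures carry a normothermic label and were at passage 5 or 6, and the 4 cultures from intrauterine growth-restricted (IUGR) fetuses carry a hyperthermic label and were at passage 3 or 4. All were grown in a standard medium with fetal bovine serum. Each culture has its own sheep number in its title and was measured on 1 array. Growth restriction, hyperthermia and passage run together across the groups and cannot be told apart. As cultured cells kept for several passages, they are a model of the artery only in so far as they keep its cell type, which is examined below.

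BMP ligands are secreted proteins that bring together a type I and a type II receptor kinase at the cell surface. The type I receptor then phosphorylates SMAD1, SMAD5 or SMAD9, which pair with SMAD4 and enter the nucleus, where the ID genes are among their best known targets. In endothelium the type I receptor ACVRL1 (also called ALK1), with ENG beside it and BMPR2 as its partner, answers to GDF2 (BMP9) in the blood and favours a quiescent vessel wall. In humans, inherited loss of BMPR2 is a cause of pulmonary arterial hypertension, and loss of ENG or ACVRL1 causes hereditary haemorrhagic telangiectasia.

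Values are log2 intensities unless a linear intensity or fold is named, and each ± is the standard deviation within a group of 4 unless it is marked as a standard error (SE). Values below 2.56, the 10th percentile of the table, were raised to that floor, where they have no order. A level of 3.44, the 95th percentile of 127 rows for olfactory receptors, genes of the nose that serve here as a gauge of background, marks where a signal is hard to tell from none. Levels are compared between cultures for 1 gene at a time, since intensities of different genes depend on their probes. Group differences are IUGR minus control from limma fitted over all 14577 genes, with Benjamini-Hochberg adjustment over those genes and a threshold of 0.05.

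The cultures did not all carry the marker profile of their label, and this bears on every gene below. Mean-centred scores of 14 measured endothelial markers lay between 1.71 and 1.97 in control replicates 1 to 3, at 0.54 in control replicate 4, at -0.70 and 0.62 in IUGR replicates 1 and 3, and at -3.01 and -3.07 in IUGR replicates 2 and 4. Of these markers 13 had a lower mean in IUGR cultures, 12 of them at an unadjusted p under 0.05 in limma. The list had 6 and 5 members at or below the olfactory level in IUGR replicates 2 and 4, against at most 1 in any other culture, and in IUGR replicate 2 KDR and EMCN were at the floor. The summed linear intensity of the list ran from 3843 to 12370 in control and from 168 to 4087 in IUGR cultures. Fibroblast markers (12 measured) summed to between 733 and 1771 in control replicates 1 to 3 and to 15915 in control replicate 4, against 11763 to 23184 in IUGR cultures, with FAP and POSTN at the floor in control replicates 1 to 3. All 12 had a higher mean in IUGR cultures, 6 of them at an unadjusted p under 0.05. Smooth muscle markers (8 measured) summed to 19901 in control replicate 4 and to between 8619 and 11308 in IUGR replicates 1 to 3, against 1141 to 2885 in the other controls and 1420 in IUGR replicate 4. Mesothelial and epithelial markers (8 measured) summed to 4941 and 8790 in IUGR replicates 2 and 4 and to at most 154 in each other culture. KRT8 was the largest term in those 2 sums, and not every marker of the list rose with it. EPCAM was at the floor in IUGR replicate 2 and 3.45 in IUGR replicate 4, with its highest value, 4.75, in IUGR replicate 3. KRT7 was 3.33 and 4.99 in IUGR replicates 2 and 4, against 3.36 to 3.93 in the controls. Leukocyte markers (6 measured) summed to between 501 and 1458 in control and between 225 and 1199 in IUGR cultures. PTPRC, the defining marker of the list, was at or below the olfactory level on every array, whereas CD68 and CD14 were above it on every array and LAPTM5 was 9.48 ± 0.82 in the controls and 5.94 ± 3.18 in the IUGR cultures. Differences of the 10 genes over all cultures are therefore set beside those from reduced sets, where these moved the value or the call. The sets leave out control replicate 4, IUGR replicates 2 and 4, or all 3 of these. For other pathway genes, values from reduced sets are given for some only. In whole cultures, fewer cells of a type and less RNA per cell cannot be told apart.

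None of the 10 genes passed the threshold over all genes with all 8 arrays in limma, where 10 genes (0.0686%) did, and the smallest adjusted p among the 10 was 0.116, for BMPR1A. At an unadjusted p under 0.05 there were 4, namely BMPR1A with a higher value in IUGR and SMAD1, BMPR2 and ACVRL1 with lower values, beside 15.9% of all genes (8.2% higher and 7.68% lower). The groups did not overlap for 2 of them, BMPR1A and SMAD1, beside 8.65% of all genes. Of the 10, 5 had a higher and 5 a lower mean in IUGR cultures, with a median difference of 0.19 and a median absolute difference of 1.37. Over all genes these medians were 0.00 and 0.22. At the same unadjusted threshold there was 1 of the 10, BMPR1A, without IUGR replicates 2 and 4 (12.4% of all genes), and there were 0 with passage (8.49%) or the endothelial score (6.44%) as a covariate. The endothelial score comes from the same arrays and runs largely with the groups, from 0.54 to 1.97 in control and -3.07 to 0.62 in IUGR cultures. Fits with it, here and below, therefore cannot tell the group from the score.

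**Figure D1:**
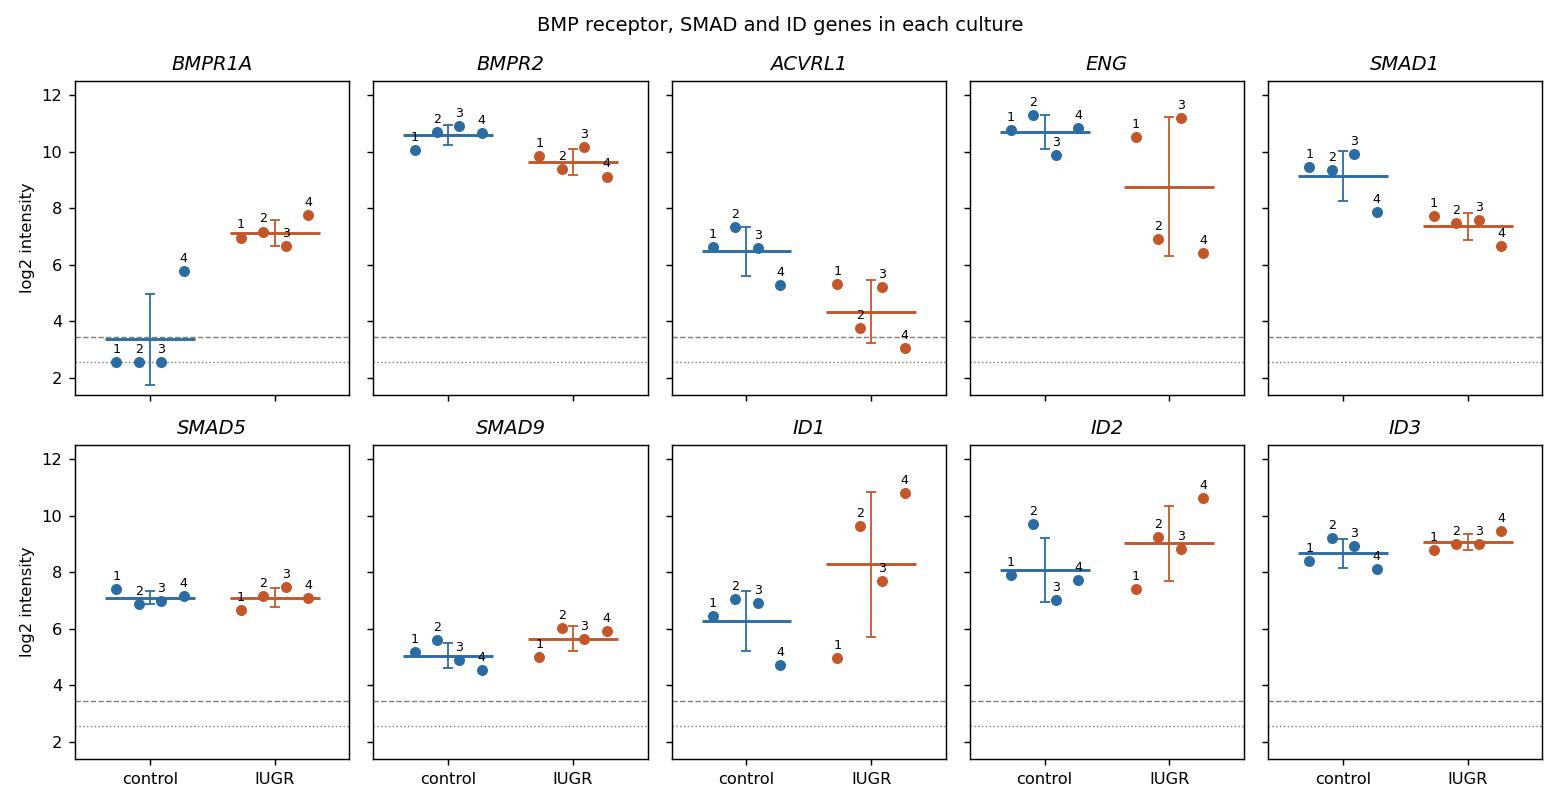
Each panel plots 1 gene's log2 intensity (vertical axis) in the 4 control (blue) and 4 IUGR (orange) cultures, numbered by replicate, with the group mean as a bar and its standard deviation as a whisker; the dashed line is the olfactory receptor level of 3.44 and the dotted line the floor of 2.56. BMPR1A sits at the floor in control replicates 1 to 3 only, while ENG is low and ID1 high in IUGR replicates 2 and 4.

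BMPR1A encodes a type I BMP receptor (ALK3) that binds BMP2 and BMP4. It stood at the floor in control replicates 1 to 3, was 5.79 in control replicate 4, and was 6.96, 7.18, 6.65 and 7.75 in IUGR replicates 1 to 4. All 4 IUGR cultures thus lay above every control, and control replicate 4 lay nearer to them than to the other controls. In linear intensity the first 3 controls read 4.01, 4.77 and 4.93, control replicate 4 read 55.4, and the IUGR cultures read between 101 and 215. The mean was 3.37 ± 1.62 in the controls and 7.14 ± 0.46 in the IUGR cultures (n = 4 each).

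The BMPR1A difference was 3.77 ± 0.78 (SE), with a 95% interval of 1.91 to 5.63 and an adjusted p of 0.116 in limma. Over the 70 possible assignments of arrays to groups, an exact permutation test (two-sided) gave p = 0.0286, the smallest that 4 against 4 arrays allow. Every gene whose groups do not overlap gets this p, so it adds nothing to the lack of overlap. Because 3 controls were at the floor, the fitted difference understates the distance from them. The IUGR mean was 23.9-fold above the floor, and so at least that far above those 3 controls. Without control replicate 4 the difference was 4.58 ± 0.26 (SE) and passed (adjusted p = 0.00289 in limma), in a setting where 2.53% of all genes did. Without control replicate 4 and IUGR replicates 2 and 4 it was 4.25 ± 0.12 (SE) and also passed (adjusted p = 0.00737 in limma, beside 2.23% of all genes). In both, the 3 remaining controls have a spread of 0 because they are at the floor. With no floor, on the log2(value + 1) scale, an alternative chosen after seeing the data, the differences in those sets were 4.67 and 4.35. Both passed beside 4.53% and 4.93% of all genes. There the 3 controls rest on values below the floor, 4.01 to 4.93 in linear intensity, so this scale does not give their true spread. BMPR1A was 1 of 12 genes (0.0823%) at the floor in control replicates 1 to 3 and above the olfactory level in each of the other 5 cultures, a pattern set after its values were seen. Fibroblast markers were low in the same 3 controls in which BMPR1A was at the floor, with list scores of -2.38, -3.02 and -3.01 there and 0.85 to 2.52 in the other 5 cultures. Fitted with the endothelial score as a covariate, the BMPR1A difference was 2.28 ± 1.16 (SE), with a 95% interval of -0.55 to 5.12. The part of other cell types in the BMPR1A values was not tested.

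BMPR2, the type II receptor of BMP ligands, was bright in every culture. Control replicates 1 to 4 read 10.08, 10.69, 10.90 and 10.67, and IUGR replicates 1 to 4 read 9.85, 9.39, 10.15 and 9.12. The groups overlapped by a small margin, since IUGR replicate 3 lay just above control replicate 1, and IUGR replicates 2 and 4 were lowest. The mean was 10.58 ± 0.35 in the controls and 9.63 ± 0.46 in the IUGR cultures (n = 4 each), 1.94-fold lower on the linear scale. The difference of -0.96 ± 0.27 (SE) did not pass (adjusted p = 0.177 in limma), and its 95% interval ran from -1.60 to -0.31. Without IUGR replicates 2 and 4 it was -0.58 ± 0.26 (SE), and with control replicate 4 also left out it was -0.55 ± 0.30 (SE), both with intervals that include 0. Fitted with the endothelial score as a covariate, it was -0.28 ± 0.34 (SE).

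ACVRL1, the endothelial type I receptor, ran from 5.29 to 7.35 in control cultures and from 3.05 to 5.33 in IUGR cultures. Control replicates 1 to 4 read 6.64, 7.35, 6.60 and 5.29, and IUGR replicates 1 to 4 read 5.33, 3.78, 5.20 and 3.05. Control replicate 4 lay with IUGR replicates 1 and 3, within 0.1 on the log2 scale of each, and IUGR replicate 4 was below the olfactory level of 3.44. The difference was -2.13 ± 0.65 (SE), or 4.37-fold lower, with an adjusted p of 0.197 in limma. With control replicate 4 left out it was -2.52 ± 0.64 (SE), the groups no longer overlapped, and the adjusted p was 0.109 in limma, beside 17.7% of all genes without overlap. Without IUGR replicates 2 and 4 it was -1.20 ± 0.58 (SE). Without those and control replicate 4 it was -1.59 ± 0.28 (SE), with an adjusted p of 0.0968 in limma and no overlap between the 3 controls and the 2 remaining IUGR cultures (34.1% of all genes did not overlap there). Fitted with the endothelial score as a covariate, it was -0.17 ± 0.56 (SE).

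ENG, endoglin, is the endothelial co-receptor that presents ligand to ACVRL1. Control replicates 1 to 4 read 10.75, 11.31, 9.88 and 10.85, while IUGR replicates 1 to 4 read 10.52, 6.90, 11.20 and 6.42. IUGR replicates 1 and 3 lay inside the control range, and IUGR replicates 2 and 4 were far below it. In linear intensity these 2 read 119.5 and 85.5, against 940 to 2535 in the other 6 cultures. The group difference of -1.94 ± 1.17 (SE) did not pass (adjusted p = 0.475 in limma), with a 95% interval of -4.72 to 0.84. It rests on those 2 cultures, for without them the difference was 0.17 ± 0.45 (SE), and with control replicate 4 also left out it was 0.22 ± 0.52 (SE). Thus ENG did not follow ACVRL1 in control replicate 4 and IUGR replicates 1 and 3. There ENG lay in the range of control replicates 1 to 3, and ACVRL1 was lower than in any of those. The 2 cultures with low ENG are those with 6 and 5 of 14 endothelial markers at or below the olfactory level and with KRT8, a simple-epithelium keratin, at 11.67 and 12.22. KRT8 was at most 3.79 elsewhere. The part of cell type in the ENG values was not tested.

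**Figure D2:**
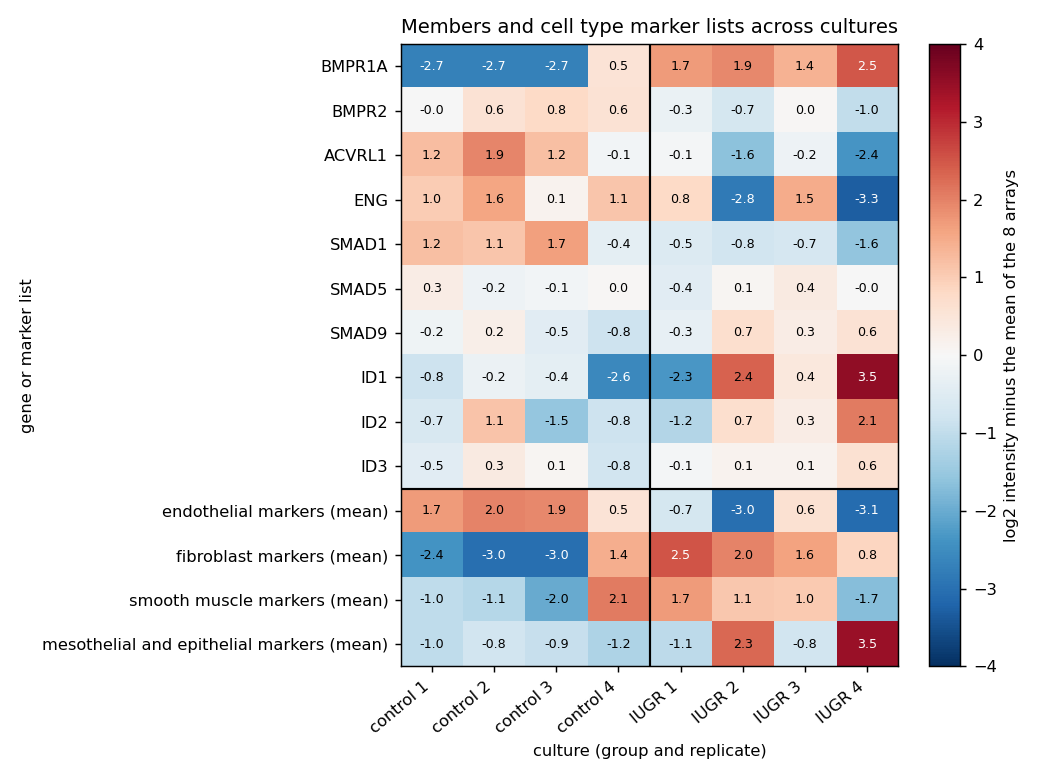
Colour and number give log2 intensity minus the mean of the 8 arrays for each gene (upper rows), and the mean of such values over the members of 4 marker lists (lower rows), in the 4 control and 4 IUGR cultures (columns). BMPR1A is at its lowest in the 3 control cultures with fibroblast scores of -2.38 to -3.02, and ENG is at its lowest and ID1 at its highest in IUGR replicates 2 and 4, with mesothelial and epithelial scores of 2.30 and 3.46.

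Among the receptor-activated SMADs, which carry the signal to the nucleus, SMAD1 had lower values in IUGR cultures, SMAD5 hardly varied, and SMAD9 had somewhat higher values. SMAD1 read 9.47, 9.37, 9.91 and 7.86 in control replicates 1 to 4 and 7.71, 7.48, 7.58 and 6.67 in IUGR replicates 1 to 4. Every IUGR culture lay below every control, though control replicate 4 was only just above IUGR replicate 1. The mean was 9.15 ± 0.89 in the controls and 7.36 ± 0.47 in the IUGR cultures (n = 4 each), a difference of -1.79 ± 0.47 (SE) or 3.46-fold. The exact permutation test (two-sided) gave p = 0.0286, the smallest possible, which follows from the lack of overlap. Over all genes the SMAD1 difference did not pass (adjusted p = 0.158 in limma). Without control replicate 4 it was -2.22 ± 0.29 (SE) and passed (adjusted p = 0.0249 in limma, beside 2.53% of all genes). It also passed without control replicate 4 and IUGR replicates 2 and 4, at -1.94 ± 0.20 (SE). The adjusted p there was 0.0433 in limma, beside 2.23% of all genes. Without IUGR replicates 2 and 4 alone it was -1.51 ± 0.61 (SE) and did not pass (adjusted p = 0.420 in limma). Fitted with the endothelial score as a covariate, it was -0.86 ± 0.68 (SE).

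SMAD5, which shares its targets with SMAD1, read 7.41, 6.89, 6.99 and 7.15 in the controls and 6.66, 7.17, 7.47 and 7.10 in the IUGR cultures. The IUGR values spanned the control range on both sides. Its difference was -0.01 ± 0.19 (SE), with a 95% interval of -0.47 to 0.45 and an unadjusted p of 0.970 in limma. SMAD9, the least studied of the 3, read 5.18, 5.59, 4.88 and 4.54 in the controls and 5.02, 6.03, 5.66 and 5.92 in the IUGR cultures. IUGR replicate 1 lay among the controls and the other IUGR cultures above them. The SMAD9 difference of 0.61 ± 0.30 (SE) did not pass (adjusted p = 0.383 in limma). It was 0.44 ± 0.30 (SE) without control replicate 4 and 0.29 ± 0.35 (SE) without IUGR replicates 2 and 4, and with control replicate 4 and both IUGR replicates 2 and 4 left out it was 0.12 ± 0.32 (SE).

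**Figure D3:**
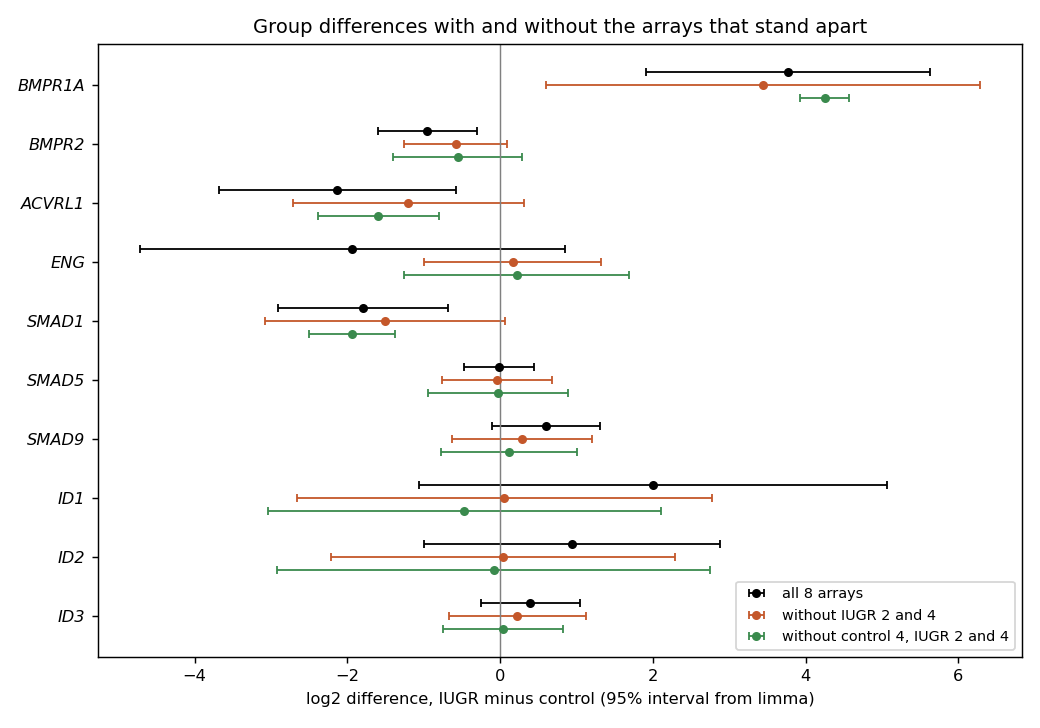
Points are log2 differences, IUGR minus control, for each gene, with 95% intervals from limma, over all 8 arrays (black), without IUGR replicates 2 and 4 (orange), and without these and control replicate 4 (green). The BMPR1A and SMAD1 differences are 3.77 and -1.79 in the first set and 4.25 and -1.94 in the last, whereas those of ENG and ID1 go from -1.94 and 2.00 to 0.22 and -0.47.

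The ID genes encode helix-loop-helix proteins without a DNA-binding region, which bind E proteins and keep them off DNA. All 3 had higher means in IUGR cultures and none passed. ID1 read 6.44, 7.05, 6.90 and 4.71 in control replicates 1 to 4 and 4.96, 9.63, 7.70 and 10.82 in IUGR replicates 1 to 4. IUGR replicates 2 and 4 were far above all others, IUGR replicate 3 was above the controls, and IUGR replicate 1 lay close to control replicate 4 at the bottom. In linear intensity the range ran from 26.2 in control replicate 4 to 1806 in IUGR replicate 4. The group difference was 2.00 ± 1.29 (SE), with a 95% interval of -1.06 to 5.06 and an adjusted p of 0.504 in limma. It was 1.48 without control replicate 4, with a 95% interval of -1.95 to 4.91. Without IUGR replicates 2 and 4 it was 0.05 ± 1.05 (SE), and with control replicate 4 also left out it was -0.47 ± 0.92 (SE).

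ID2 read 7.90, 9.69, 7.01 and 7.72 in the controls and 7.40, 9.24, 8.84 and 10.63 in the IUGR cultures. IUGR replicate 4 was again highest, but control replicate 2 stood above the other 3 IUGR cultures. The difference was 0.94 ± 0.82 (SE) with an adjusted p of 0.635 in limma, and 0.035 ± 0.87 (SE) without IUGR replicates 2 and 4. It was 0.82 ± 0.94 (SE) without control replicate 4, and with all 3 left out -0.08 ± 1.01 (SE). ID3 varied least, at 8.42, 9.21, 8.94 and 8.11 in the controls and 8.79, 9.00, 9.00 and 9.47 in the IUGR cultures. Its highest value was also in IUGR replicate 4 and its lowest in control replicate 4. The ID3 difference was 0.40 ± 0.27 (SE), with a 95% interval of -0.25 to 1.04 and an adjusted p of 0.531 in limma. It was 0.21 ± 0.24 (SE) without control replicate 4, 0.23 ± 0.35 (SE) without IUGR replicates 2 and 4, and 0.04 ± 0.28 (SE) with all 3 left out.

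The ID genes and the receptors thus had different orders across cultures. IUGR replicate 4 had the highest ID1, ID2 and ID3 and the lowest BMPR2, ACVRL1, ENG and SMAD1 of the 8 cultures. Its BMPR1A value of 7.75 was also the highest. Control replicate 4 had the lowest ID1, ID3 and SMAD9. The mesothelial and epithelial marker score was 3.46 in IUGR replicate 4, 2.30 in IUGR replicate 2 and at most -0.76 in the other 6 cultures, and its part in the ID values was not tested.

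For each gene whose standard deviation over the 8 arrays was at least 1, the genes with the most similar profile were found by the root mean square difference between log2 values centred on each gene's mean, among genes at or above the median gene. This held for BMPR1A, ACVRL1, ENG, SMAD1, ID1 and ID2, that is for 6 of the 10, beside 9.08% of all genes. SMAD1 had the closest neighbours. They were NOTCH4, a Notch receptor of endothelium, at 0.23, the ion transporter gene SLC12A2 at 0.27 and DOCK9 at 0.30. NOTCH4 read 6.69, 6.60, 7.09 and 5.44 in the controls and 4.56, 4.46, 4.92 and 4.19 in the IUGR cultures, the same order of groups as SMAD1 with control replicate 4 lowest among the controls. BMPR1A was nearest to the cytokine gene IL1A at 0.40. ACVRL1 was nearest to the protein kinase A subunit gene PRKACB at 0.35, DMD (dystrophin) at 0.35 and FAM171A1 at 0.37. ENG was nearest to the adaptor gene SH3KBP1 at 0.40 and the basement membrane gene NID1 at 0.48, both low in IUGR replicates 2 and 4 only. ID1 and ID2 had more distant neighbours, MET, the HGF receptor, at 0.88 for ID1 and DPY19L1 at 0.58 for ID2. These distances over 8 arrays are a description, and the compared genes share the same arrays.

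The rest of the pathway was read from 72 listed genes sorted by role, of which 58 were measured and 53 exceeded the olfactory level on at least 1 array. None passed over all genes in limma. At an unadjusted p under 0.05 there were 13 (9 higher and 4 lower in IUGR), beside 15.9% of all genes, and the groups did not overlap for 4, beside 8.65%. The median difference was 0.01 and the median absolute difference 0.24, against 0.00 and 0.22 over all genes.

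**Figure D4:**
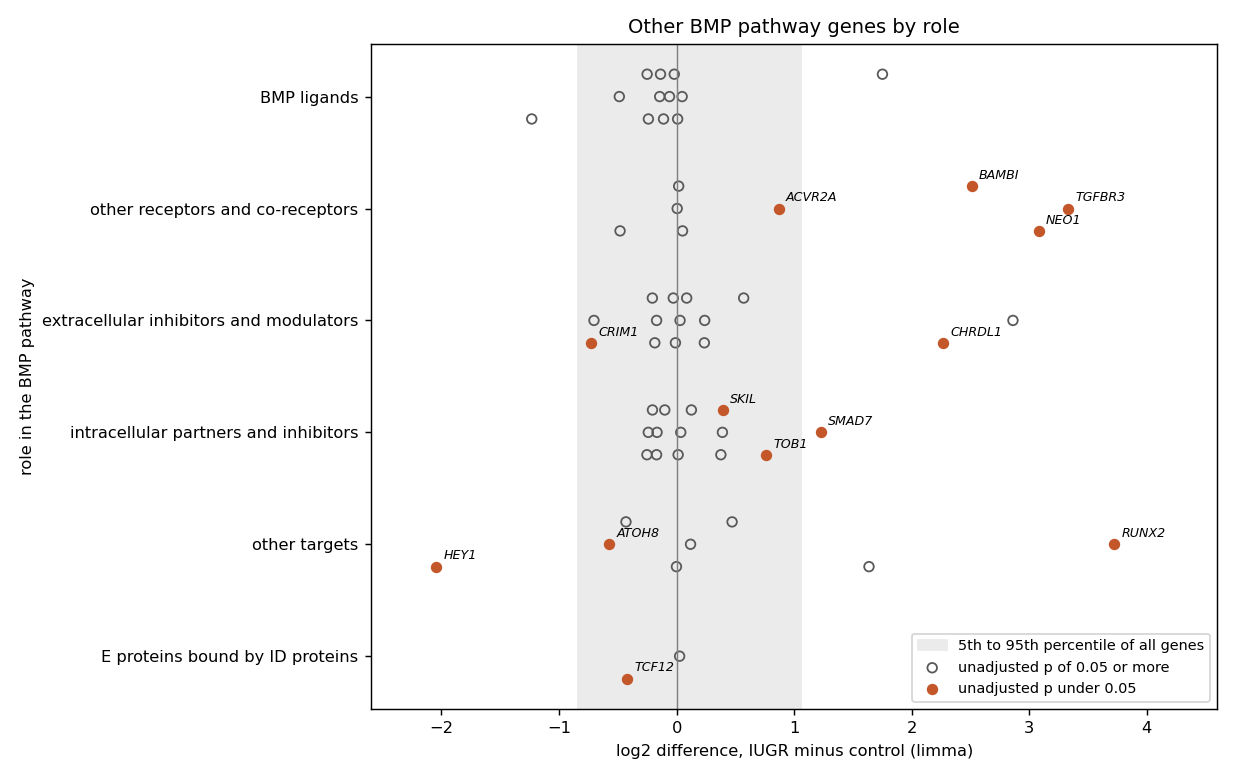
Each point is the log2 difference (IUGR minus control, limma, 4 arrays a group) of 1 measured pathway gene, in rows by role; filled points have an unadjusted p under 0.05 and are named, and the grey band spans the 5th to 95th percentile of all genes, -0.84 to 1.06. The receptor and co-receptor row holds 4 filled points to the right of 0, and the ligand row holds none.

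Ligands gave no gene at an unadjusted p under 0.05 among 12 measured. BMP4, a ligand of BMPR1A, was bright throughout, at 10.33 ± 1.07 in the controls and 9.84 ± 0.50 in the IUGR cultures (n = 4 each). GDF2, the ligand of ACVRL1, lay between 4.00 and 4.38 on every array. BMP6 read 7.35, 7.69, 6.81 and 7.29 in the controls and 6.73, 6.39, 7.10 and 3.98 in the IUGR cultures, so that IUGR replicate 4 stood apart at the bottom. BMP7, an epithelial BMP ligand, was 8.63 and 7.92 in IUGR replicates 2 and 4 but no more than 4.74 in every other culture. Its group difference was 1.75 ± 1.31 (SE) with an adjusted p of 0.569 in limma. Without IUGR replicates 2 and 4 it was -0.63 ± 0.34 (SE). BMP5 and BMP15, also among the 4 ligands with the smallest p, lay below the olfactory level on every array.

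Among 8 other receptors and co-receptors, 4 had higher values in IUGR cultures at an unadjusted p under 0.05, beside 8.2% of all genes. TGFBR3, betaglycan, a co-receptor of TGF-beta and BMP ligands, read 3.70, 5.15, 3.49 and 3.31 in the controls and 7.16, 8.00, 5.41 and 8.42 in the IUGR cultures. The groups did not overlap, with IUGR replicate 3 only just above control replicate 2, and the difference was 3.33 ± 0.73 (SE) with an adjusted p of 0.120 in limma. BAMBI, a pseudoreceptor that lacks the kinase and dampens signalling, read 4.97, 4.77, 4.36 and 7.24 in the controls and 7.41, 8.98, 6.33 and 8.67 in the IUGR cultures. Control replicate 4 lay within the IUGR range, and the adjusted p was 0.222 in limma. NEO1, neogenin, which binds the repulsive guidance co-receptors, read 2.89, 3.42, 2.79 and 6.13 in the controls and 7.11, 7.48, 4.67 and 8.29 in the IUGR cultures. Here too control replicate 4 lay within the IUGR range. ACVR2A, an activin and BMP type II receptor, differed by 0.87 ± 0.35 (SE), and ACVR1, a type I receptor, by -0.48 ± 0.34 (SE). Over all 8 arrays BAMBI and NEO1 differed by 2.51 ± 0.83 and 3.08 ± 1.03 (SE). Without IUGR replicates 2 and 4 these were 1.53 ± 0.93 and 2.08 ± 1.27 (SE). TGFBR3 was then 2.37 ± 0.75 (SE), ACVR2A 0.86 ± 0.48 (SE) and ACVR1 0.02 ± 0.24 (SE). There TGFBR3 alone of the 4 had an unadjusted p under 0.05 in limma, beside 12.4% of all genes. Without control replicate 4, BAMBI and NEO1 differed by 3.15 ± 0.68 and 3.85 ± 0.86 (SE) and did not pass.

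Extracellular inhibitors and modulators (14 measured) split evenly, with 7 higher and 7 lower means. GREM1, gremlin, a secreted BMP antagonist, had a wide range and is named here after its values were seen. It read 3.90, 3.97, 4.43 and 9.89 in the controls and 10.40, 7.71, 10.64 and 4.88 in the IUGR cultures. Control replicate 4 stood with IUGR replicates 1 and 3, and IUGR replicate 4 stood near the other controls. The GREM1 difference was 2.86 ± 1.85 (SE) over all 8 arrays (adjusted p = 0.504 in limma). Without control replicate 4 and IUGR replicates 2 and 4 it was 6.42 ± 0.21 (SE) and passed (adjusted p = 0.00787 in limma, beside 2.23% of all genes). Without control replicate 4 alone it was 4.31 ± 1.47 (SE) and did not pass (adjusted p = 0.204 in limma). Nor did it pass without IUGR replicates 2 and 4 alone, at 4.97 ± 1.97 (SE) with an adjusted p of 0.413 in limma. CHRDL1, a chordin-like antagonist, was at or near the floor in all controls and read 4.03, 5.77, 2.65 and 7.12 in IUGR cultures (adjusted p = 0.299 in limma). Its difference was 2.27 ± 0.91 (SE), and 0.72 ± 0.40 (SE) without IUGR replicates 2 and 4. CRIM1, a transmembrane protein that binds BMPs, differed by -0.73 ± 0.30 (SE), TWSG1 by 0.24 ± 0.11 (SE) and the protease gene TLL1 by -0.70 ± 0.39 (SE), none of them past the threshold. Without IUGR replicates 2 and 4 these differences were -0.49 ± 0.24, 0.34 ± 0.14 and -0.41 ± 0.52 (SE).

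Inside the cell, SMAD7, an inhibitory SMAD induced by the pathway it blocks, read 5.40, 5.65, 4.50 and 5.78 in the controls and 6.81, 6.82, 6.83 and 5.78 in the IUGR cultures. IUGR replicates 1 to 3 lay together above every control, and IUGR replicate 4 lay level with control replicate 4. The difference was 1.23 ± 0.36 (SE) with an adjusted p of 0.185 in limma. SKIL, a SMAD co-repressor, had a small difference of 0.39 ± 0.12 (SE) without overlap (adjusted p = 0.185 in limma). TOB1, an inhibitor of SMAD activity, had one of 0.76 ± 0.28 (SE), and MAP3K7, the TAK1 kinase, one of 0.38 ± 0.17 (SE). Without IUGR replicates 2 and 4, TOB1 differed by 0.30 ± 0.18 (SE), SKIL by 0.39 ± 0.17 (SE) and MAP3K7 by 0.37 ± 0.22 (SE). SMAD4, the shared partner, was 9.17 ± 0.25 in the controls and 8.96 ± 0.18 in the IUGR cultures (n = 4 each).

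Other genes that answer to BMP or Notch signals went in both directions. RUNX2, a transcription factor of bone formation, read 2.56, 2.74, 2.96 and 6.04 in the controls and 7.20, 7.64, 7.73 and 6.61 in the IUGR cultures. Like BMPR1A it was at background in control replicates 1 to 3 and intermediate in control replicate 4. Its difference was 3.72 ± 0.81 (SE) with an adjusted p of 0.117 in limma. Without control replicate 4 it was 4.55 ± 0.29 (SE) and passed (adjusted p = 0.00398 in limma, beside 2.53% of all genes). Without IUGR replicates 2 and 4 alone it was 3.89 ± 1.13 (SE) and did not pass (adjusted p = 0.311 in limma). With control replicate 4 also left out it was 4.72 ± 0.22 (SE) and passed (adjusted p = 0.0156 in limma, beside 2.23% of all genes). ATOH8, a helix-loop-helix target of SMAD1 and SMAD5 in endothelium, read 4.80, 5.01, 4.91 and 4.70 in the controls and 4.37, 4.50, 4.36 and 3.91 in the IUGR cultures. The groups did not overlap, and the difference was -0.57 ± 0.14 (SE) with an adjusted p of 0.140 in limma. HEY1, a target of both Notch and BMP signals, was 6.35 ± 0.72 in the controls and 4.31 ± 0.97 in the IUGR cultures (n = 4 each). The groups overlapped, with IUGR replicate 3 at 5.67 above control replicate 2 at 5.47. Its difference was -2.04 ± 0.56 (SE), with an adjusted p of 0.166 in limma. Without IUGR replicates 2 and 4 it was -1.48 ± 0.66 (SE), and with control replicate 4 also left out -1.38 ± 0.76 (SE). DLX3, an epithelial homeobox gene, was 6.88 and 6.47 in IUGR replicates 2 and 4 but no more than 4.16 elsewhere. Of the E proteins that ID proteins bind, TCF12 differed by -0.42 ± 0.15 (SE) and TCF3 by 0.03 ± 0.21 (SE).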

How the data were processed

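The deposited values are linear array intensity values, 1 row per gene symbol or gene number. Per the labels' protocols, RNA was isolated by Trizol, turned into biotin-marked cRNA and run by an Affymetrix protocol. Background correction, probe summary, normalization and genome build are not given in the sources used here. That the values are linear was read from them (2.77 to 8705). Array medians lay between 37.7 and 41.1 intensity units, so nothing was normalized again. Detection calls are not in the table, and precision is limited by there being 4 arrays a group.

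Rows were named through a RefSeq table (assembly ARS-UI_Ramb_v3.0, names only, no coordinates): 12809 rows by symbol, 51 by synonym and 109 by gene number, while 1613 kept their own name. Another 798 rows, which have no symbol, were dropped and 5 merged, keeping the row with the highest mean. Values were floored at 5.89 and log2 was taken. Control and IUGR cultures, grouped by the treatment label, were compared with limma 3.58.1 in R 4.3.3 (lmFit, eBayes, two-sided, no covariate). The script was tested on simulated data. Members, pathway and marker lists were chosen with earlier results of these data known. The text names all members, up to 4 genes of each pathway list with the smallest unadjusted p, the nearest profiles (some are not reported here), and genes needed to describe a list, namely BMP4, GDF2, ACVR1, GREM1, SMAD4, KRT8, KDR, EMCN, FAP, POSTN, PTPRC, CD68, CD14 and LAPTM5, chosen after their values were seen. Alternatives covered the floor and pseudocount, normalization, filters on dim genes, all rows, the prior, array weights, passage or endothelial score as a covariate, the leading number of the title as a random block, and leaving out arrays. Protein and promoter sequences were not used here. Replicate numbers follow accession order and pair nothing. That each culture came from a separate animal is read from its title alone, and if it did not, the p-values measure only spread between these samples.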

Additional observations from a re-analysis of the deposited data

Results flagged for a closer look

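Within groups of 4, an array was marked where its gap to the nearest other array took up more of the group's range than Dixon's 95% critical value. Chance alone marks about 1 in 20 groups of normally spread values, and 6 of the 64 groups examined were marked, 1 of them among the 20 groups of the 10 members. For BMPR1A, BMP15 and CHRDL1 the other arrays of the group were all at the floor, so any value above it is marked. The count of 6 can therefore not be set against that rate. BMPR1A was 5.79 in control replicate 4 with the other controls at the floor of 2.56, and RUNX2 was 6.04 in the same culture with the other controls at 2.56 to 2.96. In IUGR replicate 4, SMAD7 was 5.78 against 6.81 to 6.83 in the other IUGR cultures, and CRIM1 was 9.18 against 10.19 to 10.28. BMP15 at 2.68 in IUGR replicate 2 and CHRDL1 at 2.84 in control replicate 3 stood above others that were at the floor, and both values lie below the olfactory receptor level of 3.44.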

How the results depend on the processing

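Over the settings with a test, 222 of 247 member differences kept their direction and their side of the threshold. BMPR1A, SMAD9 and ID3 were higher and BMPR2, ACVRL1 and SMAD1 lower in every setting run. With no culture left out, 0 members and 0 other pathway genes passed in any setting at the adjusted threshold, against 4 and 13 at an unadjusted p under 0.05. The count of members past the threshold was 0 to 2 when single cultures were left out, reaching 2 without control replicate 4. The count of other pathway genes was then 0 to 1. Without control replicate 4, 2.53% of all genes passed, against 0.0686% over all cultures. With control replicate 4 and IUGR replicates 2 and 4 all left out the counts were 2 and 2, beside 2.23% of all genes. On the log2(value + 1) scale without a floor, an alternative chosen after seeing the data, the counts were 3 and 4 in that set. ACVRL1 was the added member, and 4.93% of all genes passed. Without control replicate 4 the counts on that scale were 2 and 3, beside 4.53% of all genes. The rise in these sets was thus shared with genes outside the pathway. The ENG difference was 1.59 with the endothelial score as a covariate, 0.17 without IUGR replicates 2 and 4, and 0.22 without these and control replicate 4 on either scale. ID1 and ID2 differences were -0.12 and -0.13 with the endothelial score as a covariate, -0.47 and -0.0847 without those 3 cultures, and -0.45 and -0.0852 there on the scale without a floor. SMAD5, -0.01 over all cultures, was -0.38 with passage as a covariate, 0.0188 with array weights, 0.0444 with the endothelial score, -0.13 to 0.14 when single cultures were left out and 0.00666 without control replicate 4 on the scale without a floor. Members at an unadjusted p under 0.05 numbered 0 with passage or the endothelial score as a covariate and 1 without IUGR replicates 2 and 4. Passage hardly varies within groups, so that fit is imprecise, and it gave 5.19 ± 2.51 (SE) for BMPR1A, -0.51 ± 0.88 for BMPR2, -3.35 ± 2.10 for ACVRL1, -5.13 ± 3.62 for ENG, -2.13 ± 1.55 for SMAD1, 1.01 ± 0.97 for SMAD9, 3.98 ± 4.18 for ID1, 1.61 ± 2.68 for ID2 and 0.71 ± 0.89 for ID3. The leading number 9 of the title holds both groups, with control replicate 1 against IUGR replicates 2 and 3, and gave 4.36 for BMPR1A, -1.94 for SMAD1 and -0.31 for BMPR2. As a random block, the leading number moved no member across the threshold. Where a cause is not named, the cause was not tested. No paired analysis was possible because the labels give no replicate numbers, and the leading number of the title, used above, matches only 1 control with 2 IUGR cultures. Arrays without detection calls cannot show whether a value at the floor is a true absence.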

Other observations

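The 11 genes that shared the BMPR1A pattern, at the floor in control replicates 1 to 3 and above the olfactory receptor level in the other 5 cultures, were FAP and POSTN, both fibroblast markers of the lists used here, the atypical cadherin gene FAT1, the cytokine gene IL1A, the guidance gene SEMA3A, the channel gene TRPC4, the phospholipase gene PLA2G4A, LMO7, LUZP2, CPNE8 and RBM24. In control replicate 4 these 11 ranged from 3.56 for RBM24 to 11.36 for POSTN.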
